A study of Homo sapiens with 4 samples.

Results

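The actin cytoskeleton set comprised 42 genes, taken by symbol from the 59050 genes of the count table: actins, proteins that bind or shape actin filaments, non-muscle myosin chains, focal adhesion proteins that hold filaments at the membrane, and SRF, a transcription factor that acts on many of these genes. The genes were compared between RCC4 cells that expressed a short hairpin RNA against PML (shPML#1, here shPML) and cells that expressed a scrambled hairpin (shCtrl). RCC4 is an established human clear cell renal carcinoma line that lacks functional VHL, and PML is the protein that scaffolds the nuclear bodies named after it. Both hairpins were carried by a doxycycline-inducible lentiviral vector in puromycin-selected bulk populations grown in tetracycline-free serum. All 4 libraries, controls included, came from cells given doxycycline at 100 ng/ml for 96 h. The work was done as 2 experiments with independent infections. Each was taken to hold 1 shCtrl and 1 shPML library. The replicate number of a library was read as its experiment, which the labels do not state. Only 1 hairpin against PML was sequenced, so an effect of the loss of PML and an effect of that hairpin cannot be told apart in these libraries. In bulk RNA, fewer cells with a transcript and less of it per cell cannot be told apart either.

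Actin monomers assemble into filaments, and profilins, thymosins and the cofilin family set how fast filaments grow and fall apart. Tropomyosins, transgelins, calponins and caldesmon lie along the filament, non-muscle myosin II pulls on it, and alpha-actinins, filamins, talin, vinculin and zyxin tie it into bundles and into focal adhesions, the contacts of the cell with its matrix. SRF binds a DNA element called the CArG box and is activated by cofactors that are released when free actin monomer runs low. In renal epithelial cells these genes serve cell shape, adhesion and division, and several of them are best known from smooth muscle.

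The libraries held 27781193 to 69870617 counted reads, and levels are given as CPM, counts brought to a common library size after TMM scaling (a correction by the trimmed mean of log ratios). The targeted gene PML was at 93.1 and 136 CPM in the shCtrl libraries of experiments 1 and 2 and 54.9 and 87.6 CPM in the shPML libraries, and its log2 ratio of shPML to shCtrl was -0.76 and -0.63 in experiments 1 and 2. In the fit with the experiment as a block it fell by 0.70 on the log2 scale (standard error 0.11, Benjamini-Hochberg adjusted p = 4.2e-07, quasi-likelihood test of edgeR, as for all adjusted p below), to 61.6% of shCtrl, and without the block the adjusted p was 0.32. The knockdown was thus partial in both experiments. All 8 markers of the renal carcinoma epithelium, PAX8, PAX2, CA9, NNMT, KRT8, KRT18, VIM and VEGFA, had reads in each library. Their summed level was 4796 to 5757 CPM in shCtrl and 5603 to 7363 CPM in shPML. Most of the sum was VIM, at 3227 to 5875 CPM over the libraries, so it does not show how the other markers moved. VIM and KRT8 moved in opposite directions, at log2 fold changes of 0.48 and -0.38 with the block. NNMT and KRT18 were lower in both shPML libraries than in both controls, at 176.4 to 426.6 and 181.8 to 208.9 CPM over the libraries. CA9 was higher in both shPML libraries, at 64.74 to 116.9 CPM. PAX8, PAX2 and VEGFA had overlapping groups, at 301.7 to 426.8, 27.8 to 69.65 and 93 to 129 CPM. Of the smooth muscle markers, MYOCD had 0 reads in all libraries, LMOD1 at most 1 and DES at most 5, while MYH11 had 76 reads in shPML of experiment 2 and at most 5 elsewhere. The same library held 346 reads of the leukocyte marker PTPRC and 113 of the endothelial marker PECAM1, against at most 7 and 3 reads in the others. The summed smooth muscle markers were at 0.0278 to 0.129 CPM in shCtrl and 0.126 to 2.91 CPM in shPML. The fibroblast markers summed to 3.44 to 9.53 CPM in shCtrl and 2.47 to 2.52 CPM in shPML, with DCN and LUM at 0 reads in all libraries. CD3E had 0 reads in all libraries and CDH5 at most 2. The part of these markers in the results was not tested. Experiment 1 does not include that library, and its ratios are given beside those of experiment 2 for the set as a whole and for part of the genes, and for all 41 genes tested in the plot of ratios by experiment.

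Calls required an adjusted p below 0.05 together with a log2 fold change of more than 0.5 in either direction, in the fit with the block. Of the 42 genes, 41 passed the filter on low counts, and FLNC, the muscle filamin, did not, with 8, 0, 8 and 0 reads in shCtrl of experiments 1 and 2 and shPML of experiments 1 and 2. The block left 1 residual degree of freedom, so the spread rested on information shared across genes. In shPML, 16 of the 41 genes were called lower and 0 were called higher, against 10.5% of all 16516 genes tested that were called lower and 8.57% that were called higher. Without the block 3 of them, ACTG1, TAGLN and TAGLN2, were called lower, each at an adjusted p of 0.048, where 0.333% of all genes were called lower and 0.0787% higher. In all, 14 of the 41 genes, these 3 among them, had an unadjusted p under 0.05 in that fit, as had 17.9% of all genes tested. The median log2 fold change of the 41 genes was -0.39, against 0.0042 over all genes tested, and 34 of the 41 had a negative value, as had 49.7% of all genes tested. Within experiment 1 the median ratio of the set was -0.42 and within experiment 2 it was -0.41, and 33 of the 41 genes were below shCtrl in both, against 37.1% of all genes tested. The CPM of both shPML libraries lay below that of both shCtrl libraries for 23 genes and above it for 3, where 24.9% and 23.1% of all genes tested were apart in these directions.

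**Figure D1:**
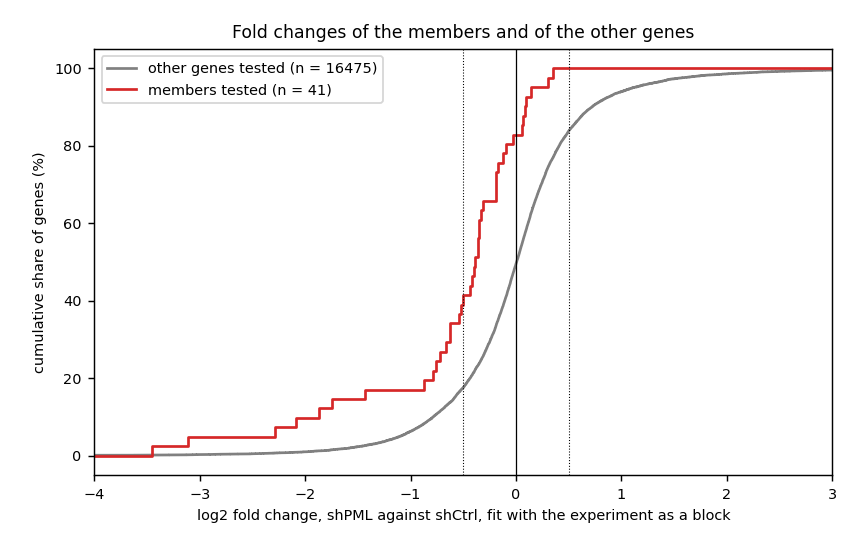
Cumulative share of genes (vertical axis, percent) by log2 fold change of shPML against shCtrl in the fit with the block (horizontal axis), for the 41 cytoskeleton genes tested (red) and the other 16475 genes tested (grey). Dotted lines mark the threshold of 0.5 in each direction: 41.5% of the cytoskeleton genes lie below the lower line against 17.6% of all genes tested, and none of the 41 lies above the upper line.

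CArG boxes, the element that SRF binds, were counted in the promoters of the set. An exact box, CC followed by 6 bases of A or T and by GG, reads the same way on both strands in form and was sought in the RefSeq promoter windows of GRCh38.p14, 250 bases before to 50 after each start site. A window was given for 38 of the 42 genes (PFN2, MYL9, ACTB and TAGLN had no entry), 15 of them with several windows. At least 1 box was present for 7 genes, ACTG1, ACTG2, ACTN1, CNN2, FLNA, SRF and TPM4, which is 18.4% of the 38 genes, against 1.53% of the 10632 tested genes with a window and 1.29% of all 35116 windows. The box was present for 3 of the 14 called genes with a window and for 4 of the 24 others. The boxes began between positions -173 and -10 relative to the start site, and SRF and ACTG2 each had a pair of them. The stretches around the box of 3 called genes and of SRF are shown 5′ to 3′ because they hold the element that SRF binds, and capitals mark each box, of which the stretch of SRF holds both. The other 31 of the 38 genes had no exact box in these windows.
ACTG1 (chr17:81512859-81512918, minus strand): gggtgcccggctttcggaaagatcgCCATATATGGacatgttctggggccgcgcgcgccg
CNN2 (chr19:1026494-1026553, plus strand): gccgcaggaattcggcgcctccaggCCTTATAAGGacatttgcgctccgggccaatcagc
TPM4 (chr19:16067340-16067399, plus strand): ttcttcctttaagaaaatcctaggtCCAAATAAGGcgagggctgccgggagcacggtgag
SRF (chr6:43171214-43171273, plus strand): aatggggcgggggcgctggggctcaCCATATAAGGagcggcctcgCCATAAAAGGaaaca
A match describes these letters only, and binding was not measured.

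Among the actins, the cytoplasmic gamma isoform fell and the beta isoform moved less. ACTG1 (chr17:81509971-81512818, minus strand), which encodes gamma-actin, was at 3689 and 4057 CPM in the shCtrl libraries of experiments 1 and 2 and 1097 and 1211 CPM in the shPML libraries. Both shPML libraries were well below both controls, and the 4 values formed groups that did not overlap. ACTG1 fell to 29.8% of shCtrl (log2 fold change -1.75, standard error 0.09, adjusted p = 3.7e-25 with the block and 0.048 without it), and its ratio was -1.75 and -1.74 in the 2 experiments. ACTB (chr7:5527148-5530602, minus strand), which encodes beta-actin and was, with TMSB10, the most abundant transcript of the set per length, was at 7750.4 and 12115 CPM in the shCtrl libraries of experiments 1 and 2 and 5748 and 9113 CPM in the shPML libraries. Its groups overlapped, with experiment 2 above experiment 1 in both conditions, and the ratio within the experiments was -0.43 and -0.41. The difference of ACTB passed the p threshold and not the fold threshold (log2 fold change -0.42, standard error 0.07, adjusted p = 4.6e-06 with the block and 0.57 without it).

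The muscle isoforms were far less abundant. ACTA2, smooth muscle alpha-actin, was at 14.4 and 13.5 CPM in the shCtrl libraries of experiments 1 and 2 and 8.61 and 10.7 CPM in the shPML libraries, with both shPML libraries below both controls, and it was called lower at a size near the threshold (log2 fold change -0.54, standard error 0.16, adjusted p = 0.0078 with the block and 0.27 without it). Its ratio was -0.74 and -0.33 in experiments 1 and 2. Of the exonic bases of ACTA2, 38.3% lie opposite ACTA2-AS1, from which its reads cannot be told apart because the strand setting of the counting is not given. The same limit holds for other genes called lower, TAGLN (below) among them. The shares opposite other annotated genes were 14.5% for CNN2, 12.5% for ACTN4, 11.1% for LASP1 and 10.5% for TPM4. ACTG2, smooth muscle gamma-actin, had 12 and 13 reads in shCtrl and 4 and 2 in shPML. It passed the filter through the control libraries, so it had to be higher there, and the counts over the 41 tested genes include it. Its difference was not past the test (log2 fold change -2.08, standard error 1.16, adjusted p = 0.18 with the block and 0.30 without it).

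The balance between the cytoplasmic actins shifted alike in both experiments. Per length (TPM, counts divided by the exonic length in the count table and scaled to a common sum), the level of ACTG1 relative to ACTB was 0.388 and 0.273 in shCtrl and 0.155 and 0.108 in shPML, a log2 change of -1.32 and -1.33 in experiments 1 and 2. ACTG1 made up 27.9% and 21.4% of the summed TPM of the 4 actins in shCtrl and 13.4% and 9.75% in shPML. The summed actin level was 15352 and 21748 TPM in shCtrl and 9486 and 14534 TPM in shPML. The summed level was lower in shPML than in shCtrl within each experiment, and the shPML library of experiment 2 lay below the shCtrl library of experiment 1 as well.

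ACTG1 and ACTB are closely related genes. The coding sequences of the Gencode canonical transcripts have 1125 bases each and differ at 98 of them, an identity of 91.3%, and their first 60 bases are shown with the 10 bases of ACTG1 that differ from ACTB in capitals, because they show how a read is assigned to one or the other.
ACTB: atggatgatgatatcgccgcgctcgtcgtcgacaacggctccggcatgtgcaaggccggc
ACTG1: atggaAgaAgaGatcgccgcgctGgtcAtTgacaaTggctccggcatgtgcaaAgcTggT
No 100-base stretch of ACTG1 occurred in the transcript of another gene and 0.175% of those of ACTB did. Reads on the 20 annotated pseudogenes of ACTG1 came to at most 0.174% of the reads of ACTG1 in a library.

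The transgelins, calponins and caldesmon held the largest falls of the set, with 5 of 6 called lower and -1.46 as their median log2 fold change. TAGLN (SM22, chr11:117199321-117204778, plus strand), a filament-binding protein known as an early marker of smooth muscle, was at 159 and 209 CPM in the shCtrl libraries of experiments 1 and 2 and 21.4 and 20.7 CPM in the shPML libraries. Both shPML libraries were near the same low level, far under the controls. TAGLN fell to 11.6% of shCtrl (log2 fold change -3.11, standard error 0.12, adjusted p = 9.0e-30 with the block and 0.048 without it). Some 18.4% of its exonic bases lie opposite PCSK7. Its widely expressed paralog TAGLN2 (chr1:159918107-159925732, minus strand) was at 891 and 1041 CPM in the shCtrl libraries of experiments 1 and 2 and 193 and 201 CPM in the shPML libraries. The groups of TAGLN2 did not overlap, and it fell to 20.5% of shCtrl (log2 fold change -2.29, standard error 0.10, adjusted p = 7.7e-28 with the block and 0.048 without it). TAGLN relative to TAGLN2 was 0.145 and 0.163 in shCtrl and 0.09 and 0.083 in shPML per length.

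CNN1 (chr19:11538767-11550323, plus strand), the calponin of smooth muscle, was at 7.17 and 15.9 CPM in the shCtrl libraries of experiments 1 and 2 and 0.921 and 0.946 CPM in the shPML libraries. Its controls differed from each other, and both shPML libraries were below 1 CPM. CNN1 fell to 9.12% of shCtrl with the block (log2 fold change -3.45, standard error 0.27, adjusted p = 2.5e-16 with the block and 0.055 without it), and its ratio of -2.96 and -4.07 differed between the experiments more than that of any other gene of the set. CNN2 and CNN3, the calponins of non-muscle cells, were more abundant and moved less. CNN2 was at 486 and 692 CPM in shCtrl and 328 and 499.9 CPM in shPML, with overlapping groups, and was called lower close to the threshold (log2 fold change -0.52, standard error 0.09, adjusted p = 9.7e-06 with the block and 0.43 without it). CNN3 was at 378 and 531 CPM in shCtrl and 332 and 355 CPM in shPML, with groups that did not overlap, and passed the adjusted p threshold only (log2 fold change -0.39, standard error 0.10, adjusted p = 0.0015 with the block and 0.40 without it). CALD1, caldesmon, which holds myosin off the filament, was at 203 and 212 CPM in shCtrl and 137 and 132 CPM in shPML. Its libraries agreed closely within each condition, and it was called lower (log2 fold change -0.63, standard error 0.10, adjusted p = 8.3e-07 with the block and 0.12 without it).

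**Figure D2:**
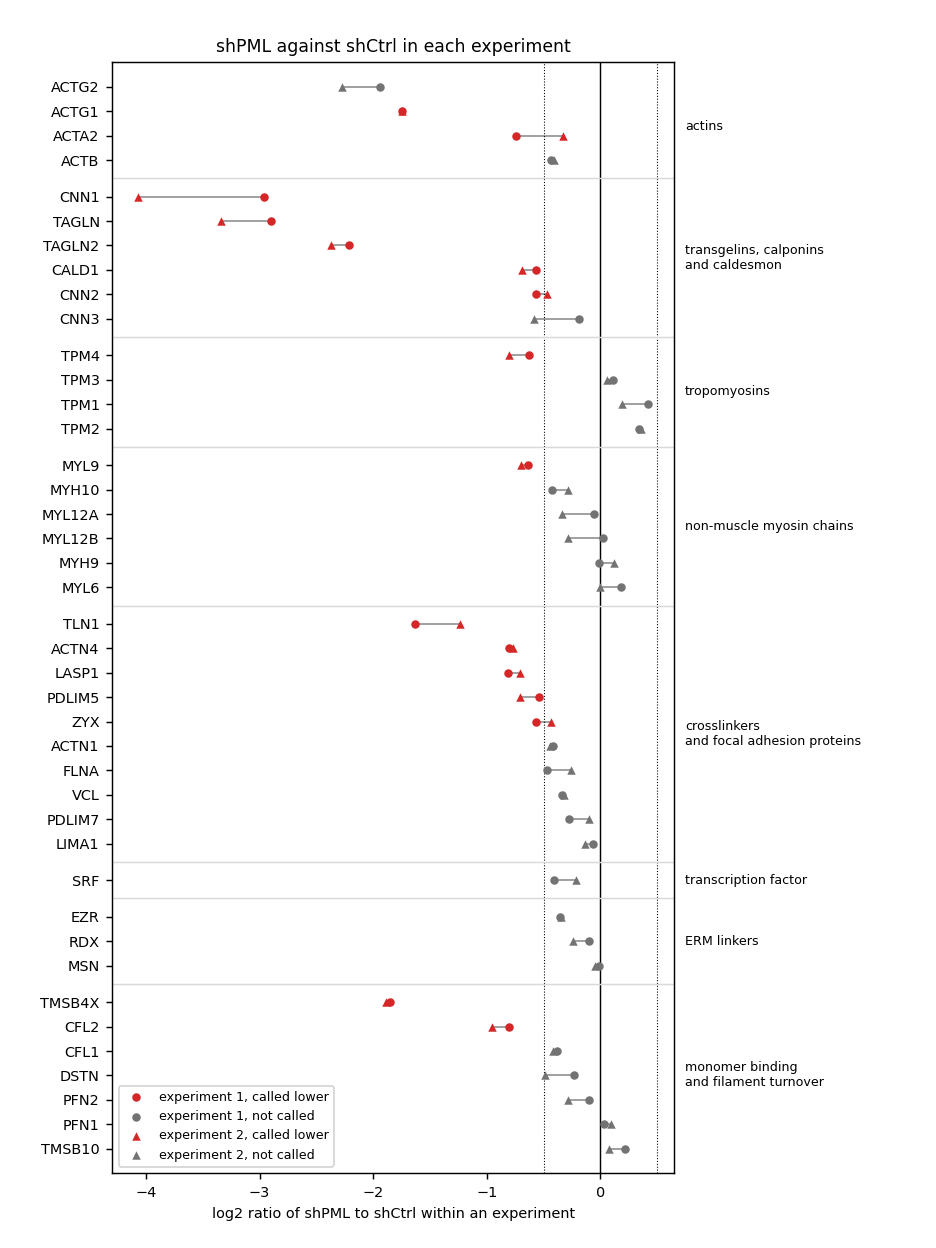
Log2 ratio of shPML to shCtrl within experiment 1 (circles) and experiment 2 (triangles) for the 41 genes tested, grouped by role, with genes called lower in red and the others in grey. The solid line marks no difference and the dotted lines the threshold of 0.5. CNN1, TAGLN and TAGLN2 lie beyond -2 in both experiments, and ACTG1, TMSB4X and TLN1 beyond -1.

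The tropomyosins, coiled-coil proteins that run along the filament and set which partners can bind it, did not move as a group. TPM4 was at 1901 and 2187 CPM in the shCtrl libraries of experiments 1 and 2 and 1232 and 1249 CPM in the shPML libraries, and both shPML libraries were below both controls. It was the tropomyosin called lower (log2 fold change -0.72, standard error 0.09, adjusted p = 8.4e-10 with the block and 0.11 without it). The other 3 had both shPML libraries above both controls. TPM2 was at 11.9 and 14.7 CPM in shCtrl and 15.1 and 18.9 CPM in shPML and had the highest log2 fold change of the set, short of both thresholds (log2 fold change 0.35, standard error 0.15, adjusted p = 0.063). TPM1 was at 1288 and 1264 CPM in shCtrl and 1727 and 1441 CPM in shPML and passed the adjusted p threshold only (log2 fold change 0.31, standard error 0.09, adjusted p = 0.0051 with the block and 0.41 without it), and 34.4% of its exonic bases lie opposite other annotated genes, TPM1-AS among them. Per length, TPM4 relative to TPM1 was 3.37 and 3.95 in shCtrl and 1.63 and 1.98 in shPML, a log2 change of -1.05 and -1.0 in the 2 experiments.

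Of the non-muscle myosin chains, 1 of 6 was called. MYL9, a regulatory light chain whose phosphorylation turns the motor on, was at 293 and 413 CPM in the shCtrl libraries of experiments 1 and 2 and 189 and 254 CPM in the shPML libraries. The groups did not overlap, and MYL9 was lower (log2 fold change -0.67, standard error 0.10, adjusted p = 9.2e-08 with the block and 0.25 without it). MYL12A and MYL12B, regulatory light chains encoded side by side, had log2 fold changes of -0.19 and -0.13 and were not past the test. MYL6, the essential light chain, was at 774 and 592 CPM in shCtrl and 879 and 591 CPM in shPML, with overlapping groups and the highest value of the group (log2 fold change 0.09, standard error 0.09, adjusted p = 0.52). MYH9, the abundant heavy chain of myosin IIA, had a log2 fold change of 0.05, and MYH10, the heavy chain of myosin IIB, one of -0.36 that passed the adjusted p threshold only. MYL6, MYL12B and MYH9 were the 3 genes of the set whose ratio changed sign between the experiments, at 0.18 and -0.0042, 0.02 and -0.28 and -0.01 and 0.12.

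Of the crosslinkers and focal adhesion proteins, 5 of the 10 tested were called lower and all 10 had a negative log2 fold change. TLN1 (chr9:35696948-35732195, minus strand), which encodes talin, the link from integrins to actin, was at 875 and 788 CPM in the shCtrl libraries of experiments 1 and 2 and 281 and 334 CPM in the shPML libraries. Both shPML libraries were well under both controls, and TLN1 fell to 36.9% of shCtrl (log2 fold change -1.44, standard error 0.10, adjusted p = 1.3e-18 with the block and 0.052 without it). Its ratio was -1.64 and -1.24 in experiments 1 and 2. ACTN4, an alpha-actinin that crosslinks filaments, was at 1202 and 1657 CPM in shCtrl and 689 and 969 CPM in shPML, also without overlap (log2 fold change -0.79, standard error 0.09, adjusted p = 9.5e-11 with the block and 0.20 without it). LASP1, a LIM and SH3 protein of adhesions, was at 785 and 902 CPM in shCtrl and 445 and 554 CPM in shPML, and its groups were apart (log2 fold change -0.76, standard error 0.09, adjusted p = 8.7e-10 with the block and 0.13 without it).

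PDLIM5, a PDZ and LIM protein that binds alpha-actinin, was at 62.3 and 72.2 CPM in the shCtrl libraries of experiments 1 and 2 and 42.8 and 44.2 CPM in the shPML libraries. The groups of PDLIM5 did not overlap (log2 fold change -0.62, standard error 0.12, adjusted p = 1.9e-05 with the block and 0.13 without it). ZYX, zyxin, which gathers at stretched filaments, was at 311 and 437 CPM in shCtrl and 209.8 and 323 CPM in shPML, with overlapping groups and a value at the threshold itself (log2 fold change -0.50, standard error 0.10, adjusted p = 2.8e-05 with the block and 0.45 without it). The call of ZYX was lost in all 8 alternative fits of the 4 libraries, more often than that of any other gene called. LIMA1, the filament bundler EPLIN, was at 195 and 164 CPM in shCtrl and 186 and 149.6 CPM in shPML and showed the smallest difference of the group (log2 fold change -0.10, standard error 0.10, adjusted p = 0.51). The other 4, ACTN1, FLNA, VCL and PDLIM7, had log2 fold changes of -0.43, -0.36, -0.33 and -0.19, of which the first 3 passed the p threshold alone. ACTN4 relative to ACTN1 was 0.993 and 1.11 in shCtrl and 0.761 and 0.883 in shPML per length.

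The ERM proteins, which link actin to the plasma membrane, held 0 of 3 calls. EZR, ezrin, was at 561 and 608 CPM in the shCtrl libraries of experiments 1 and 2 and 438 and 479 CPM in the shPML libraries, and the groups did not overlap. It passed the adjusted p threshold only (log2 fold change -0.35, standard error 0.09, adjusted p = 0.0023 with the block and 0.32 without it). MSN, moesin, was at 1042 and 1010.4 CPM in shCtrl and 1034 and 977 CPM in shPML, with overlapping groups (log2 fold change -0.03, standard error 0.09, adjusted p = 0.85). RDX, radixin, had a log2 fold change of -0.17 and was not past the test.

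Among the proteins that bind monomer or sever filaments, 2 of 7 were called lower. TMSB4X (chrX:12975110-12977227, plus strand), thymosin beta-4, the main store of actin monomer in many cells, was at 1415 and 1074 CPM in the shCtrl libraries of experiments 1 and 2 and 391 and 291 CPM in the shPML libraries. Both shPML libraries were far below both controls, and TMSB4X fell to 27.4% of shCtrl (log2 fold change -1.87, standard error 0.09, adjusted p = 1.5e-24 with the block and 0.052 without it). Its paralog TMSB10 was at 2416 and 2138 CPM in shCtrl and 2810.4 and 2247 CPM in shPML, with overlapping groups (log2 fold change 0.14, standard error 0.08, adjusted p = 0.20). Per length, TMSB4X relative to TMSB10 was 0.159 and 0.136 in shCtrl and 0.0376 and 0.035 in shPML, a log2 change of -2.07 and -1.96. Of the 100-base stretches of TMSB4X, 6.12% also occurred in another gene's transcript, and reads on its pseudogenes came to 0.761% to 0.969% of its own.

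CFL2, the cofilin best known from muscle, was at 57.5 and 62.4 CPM in the shCtrl libraries of experiments 1 and 2 and 32.9 and 32.3 CPM in the shPML libraries. The groups of CFL2 were apart and each was tight (log2 fold change -0.88, standard error 0.12, adjusted p = 1.9e-08 with the block and 0.072 without it). CFL1 and DSTN, the cofilin and destrin of most cells, passed the adjusted p threshold only, at log2 fold changes of -0.40 and -0.36. CFL2 relative to CFL1 was 0.0184 and 0.0164 in shCtrl and 0.0137 and 0.0114 in shPML per length. The profilins PFN1 and PFN2, which feed monomer to growing filaments, were at 0.06 and -0.19 and were not past the test. These pairs were chosen after their values were seen, and of the 11 pairs of related genes computed, MYL12B relative to MYL12A moved least, by 0.08 and 0.05 on the log2 scale. Among the pairs not described above, MSN relative to EZR rose by 0.35 and 0.29 in experiments 1 and 2. CNN2 relative to CNN3 changed sign, at -0.38 and 0.11. The order of the genes within a pair sets the sign of its change.

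**Figure D3:**
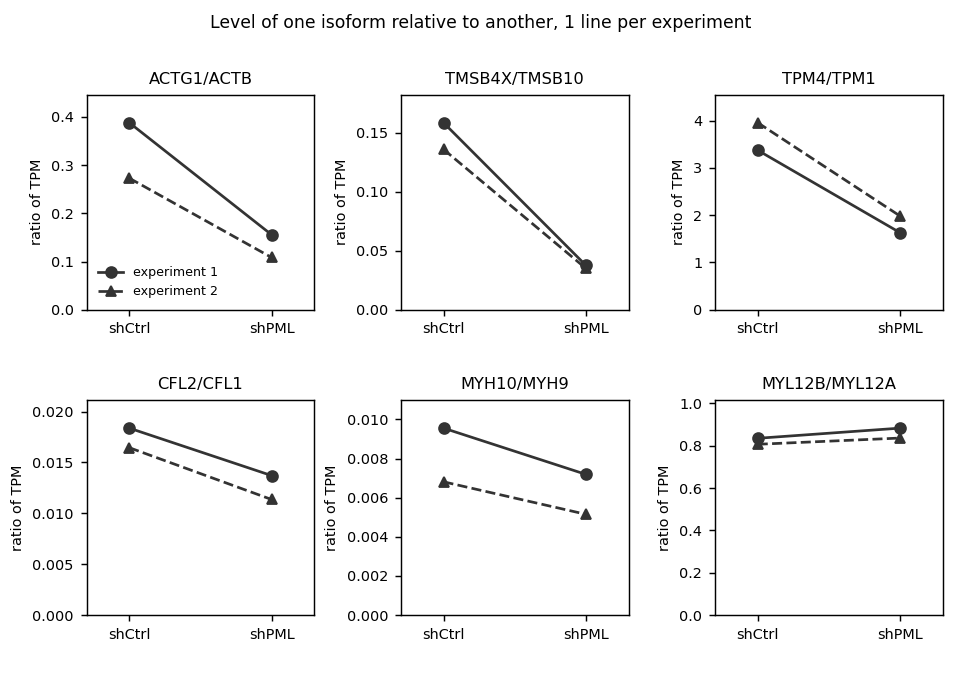
TPM of one gene divided by the TPM of a related gene in shCtrl and shPML (vertical axes start at 0), with 1 line for experiment 1 (circles, solid) and 1 for experiment 2 (triangles, dashed). The ratio is lower in shPML in both experiments for ACTG1/ACTB, TMSB4X/TMSB10, TPM4/TPM1, CFL2/CFL1 and MYH10/MYH9, and slightly higher for MYL12B/MYL12A. The pairs shown are part of those computed and were chosen after their values were seen.

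SRF itself (chr6:43171269-43181506, plus strand) was at 79.6 and 96.7 CPM in the shCtrl libraries of experiments 1 and 2 and 59.97 and 83.4 CPM in the shPML libraries. The groups overlapped, and SRF was below shCtrl within each experiment, with ratios of -0.41 and -0.21. It passed the p threshold and not the fold threshold (log2 fold change -0.31, standard error 0.11, adjusted p = 0.026 with the block and 0.56 without it). At any size of fold change, 26 of the 41 genes were lower and 1, TPM1, was higher at an adjusted p under 0.05 with the block, against 15.7% and 14.5% of all genes tested, and 11 of these 27 genes fell short of the fold threshold.

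The genes also varied between the experiments. In the same fit, 7 of the 41 genes were called higher in experiment 2 than in experiment 1 and 0 lower, against 8.93% and 4.53% of all genes tested. The 7 were PDLIM7, CNN1, ACTB, CNN2, FLNA, ZYX and PFN1, with PDLIM7, an adaptor of adhesions and stress fibres, the largest at a log2 difference of 1.00 (adjusted p = 5.1e-12 by edgeR). PDLIM7 was at 120.4 and 227 CPM in shCtrl and 99.7 and 212 CPM in shPML, so it differed more between the experiments than between the conditions. CNN1, CNN2 and ZYX were called both between experiments and between conditions. The ratio of shPML to shCtrl differed between experiments by a median of 0.143 on the log2 scale over the 41 genes and by 0.243 over all genes tested, and no gene of the set had ratios beyond 0.2 with opposite signs. With 1 library for each condition and experiment this difference was not tested.

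**Figure D4:**
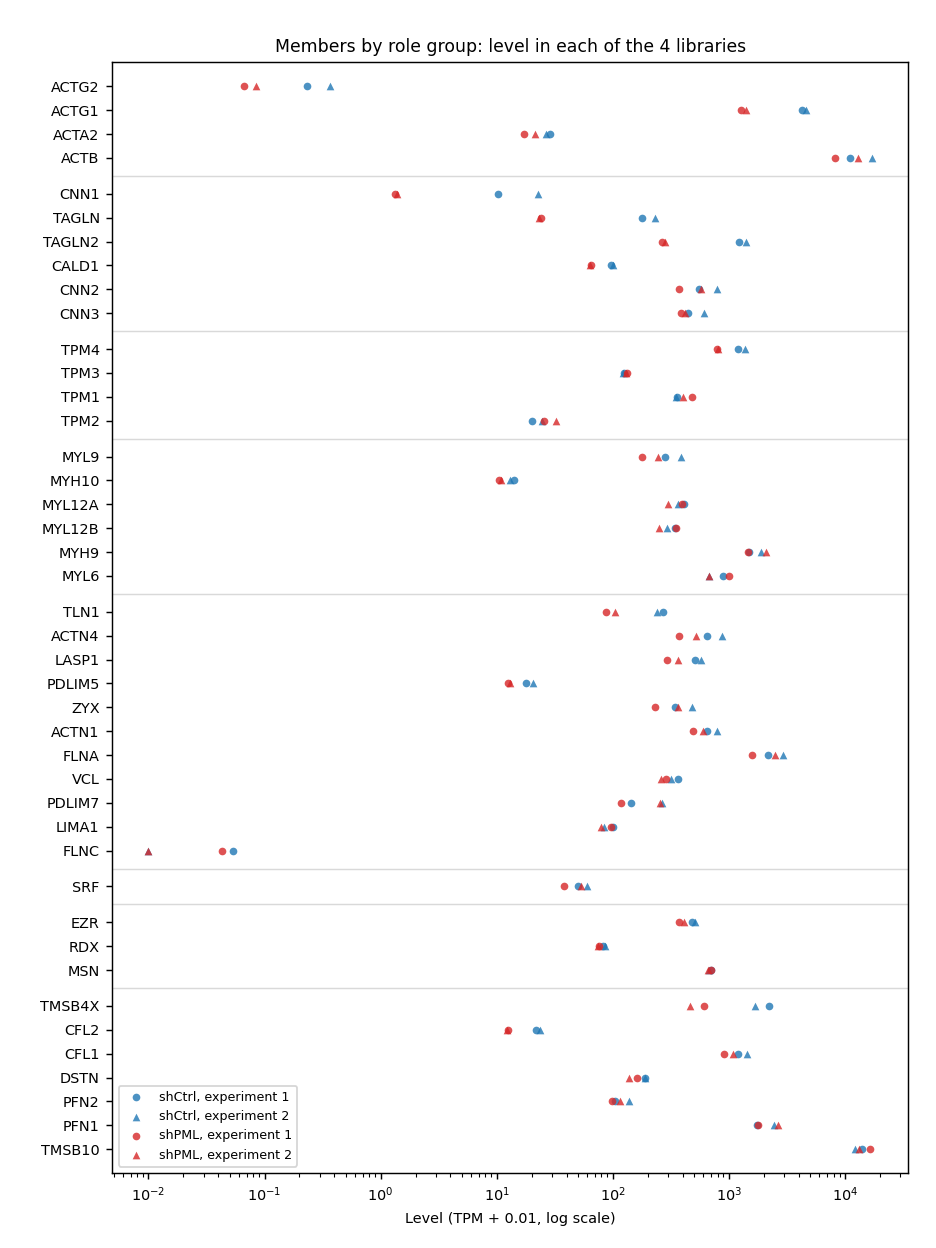
Level of each of the 42 genes (TPM plus 0.01, log scale) in shCtrl (blue) and shPML (red) of experiment 1 (circles) and experiment 2 (triangles), by role group and, within it, by fold change. Levels span from FLNC and ACTG2, with few or no reads, to ACTB and TMSB10, and the gap between colours is widest for CNN1, TAGLN and TAGLN2.

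Per length, the most abundant genes of the set in shCtrl were ACTB, TMSB10, ACTG1, FLNA and PFN1, with mean levels of 14053, 13180.4, 4469, 2574 and 2084 TPM. In shPML their means were 10645, 14776, 1346, 2052 and 2213 TPM, so that ACTG1 came after PFN1. The 42 genes together took 4.43% and 5.29% of all counted reads in shCtrl and 3.38% and 4.11% in shPML, which was lower in shPML within each experiment. The length is that of all annotated exons, so the level of a gene whose long exons are little used is understated on this scale.

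The 3′ untranslated regions were read for 1 word of 6 bases. The word GCCTTC was taken up because earlier results of these data had named it. Among the 4096 words of that length, its share differed most between lower and other genes outside the set. It was held by 56.1% of 1496 called lower and 35.0% of the rest, on the mRNA strand of Gencode canonical transcripts. The word was chosen from these same libraries, so this contrast is no independent result. In the set, 11 of the 16 called genes held the word and 9 of the 25 others. All 6 genes with a log2 fold change beyond -1 that were called did so. ACTG2, at -2.08 and not called, did not hold it. The regions of the called genes were also longer, at a median of 1410.5 bases against 731 bases. A longer region has more positions for any word, and the part of length was not tested. Outside the set, the medians were 1408 bases for genes called lower and 1333 bases for the others. One site of each of these 6 genes is shown, with the word in capitals.
CNN1 (chr19:11549793-11549822, plus strand): tagggccacaagGCCTTCcctgttttcccc
TAGLN (chr11:117207023-117207052, plus strand): cccctgtgactgGCCTTCcctctgacacat
TAGLN2 (chr1:159918400-159918429, minus strand): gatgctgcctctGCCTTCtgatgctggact
TMSB4X (chrX:12976844-12976873, plus strand): tccacaagcattGCCTTCttattttacttc
ACTG1 (chr17:81510566-81510595, minus strand): aaactggaataaGCCTTCgaaaagaaattg
TLN1 (chr9:35697715-35697744, minus strand): gccactaccaaaGCCTTCtgggctgtcggg
The site of TAGLN lies outside the span on which its reads were counted. TAGLN2 and TLN1 hold 2 sites each, ACTB and SRF hold the word and were not called, and ACTN4, CALD1, CNN2, TPM4 and ZYX were called and do not hold it. The part of the word in the differences was not tested.

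The genes that govern the actin system were given by lists chosen with earlier results known. Of 24 actin regulators, 5 were called lower and 0 higher, beside the 10.5% and 8.57% of all genes, and their log2 fold changes had a median of -0.08. The 3 with the largest differences were DIAPH3, a formin that elongates filaments, and the small GTPases RAC1 and RHOA. DIAPH3 was at 86.4 and 87.4 CPM in shCtrl and 32.9 and 30.2 CPM in shPML (log2 fold change -1.46, standard error 0.12, adjusted p = 9.2e-16 with the block and 0.048 without it). RAC1 was at 367 and 429.6 CPM in shCtrl and 149.7 and 161 CPM in shPML (log2 fold change -1.35, standard error 0.10, adjusted p = 1.7e-17 with the block and 0.052 without it), and RHOA was at 437 and 412 CPM in shCtrl and 217 and 200.3 CPM in shPML (log2 fold change -1.02, standard error 0.10, adjusted p = 2.8e-13 with the block and 0.063 without it). In each of the 3 both shPML libraries lay below both controls. The SRF cofactors MRTFA and MRTFB had log2 fold changes of 0.19 and -0.14 and were not called.

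Of the 22 genes of the Arp2/3 complex, filament capping and turnover, 4 were called lower and 1 higher, with a median of -0.07. The shares of all genes tested were 10.5% lower and 8.57% higher. WASF2, which activates Arp2/3 downstream of RAC1, was at 143 and 143 CPM in shCtrl and 58.6 and 56.8 CPM in shPML (log2 fold change -1.31, standard error 0.11, adjusted p = 2.3e-15 with the block and 0.048 without it). ARPC5, a subunit of Arp2/3, had a log2 fold change of -1.01, and CAP1, which recycles monomer with cofilin, one of -1.0. The gene called higher was GSN, gelsolin, at 13.4 and 14.9 CPM in shCtrl and 11.1 and 38.5 CPM in shPML, and only the shPML library of experiment 2, the one with reads of PTPRC and PECAM1, was above the controls. Of the 19 other focal adhesion genes, 18 were tested, 4 were called lower and 2 higher, with a median of -0.08. These counts stand beside the same 10.5% and 8.57% of all genes tested. VASP and ENAH, which protect growing filament ends, had log2 fold changes of -1.58 and -1.43. TNS3, a tensin, was higher, at 197 and 194 CPM in shCtrl and 321 and 370.1 CPM in shPML (log2 fold change 0.82, standard error 0.10, adjusted p = 7.8e-10 with the block and 0.086 without it). Without the block, DIAPH3 and WASF2 were called and the other named genes of these lists were not.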

How the data were processed

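RNA of 4 RCC4 libraries (2 shCtrl, 2 shPML) was analysed. According to the methods and the submitters' processing notes, the authors prepared stranded mRNA libraries, read 100 bases from a single end, trimmed them with Trimmomatic 0.39, aligned them to GRCh38 with STAR and counted reads per gene with featureCounts 1.6.4; the Gencode release, the strand setting and the handling of reads with several matches are not given in the sources used here. The deposited values are raw counts, not normalized, for 59050 genes. The unnumbered control and knockdown columns were assigned to replicate 1, as the other columns are marked 2. Replicate numbers were read as the 2 experiments, and the deviations of the replicate 1 libraries from their group means had a correlation of 0.546 over 16516 genes. A deposited update states that labels of a pair of samples had been swapped and corrected, and the corrected labels were used.

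Genes were kept with filterByExpr and fitted in R 4.3.3 with edgeR 4.0.16 (TMM, quasi-likelihood test with the experiment as a block, Benjamini-Hochberg adjustment over all genes tested). The thresholds for a call were 0.05 on the adjusted p and 0.5 on the absolute log2 fold change. The standard error of a log2 fold change was derived from the quasi-likelihood test, as its absolute value divided by the square root of the F statistic. Ratios within an experiment used a prior count of 0.125. p-values measure the spread between these libraries only. Alternatives were the fit without the block, DESeq2 1.42.0 with and without it, other scalings, filters and fold thresholds, and leaving out each library. On simulated data with 200 changed genes among 16516, the block fit recovered 51 of 66 genes changed by 3-fold. It recovered 35 of 67 changed by 1.5-fold, with 11 unchanged genes called, and the fit without the block recovered 0. The simulated counts were drawn with the experiment effect and the gene-wise spread of the block fit. The comparison thus favoured the block by design and cannot decide between the fits. Promoters came from RefSeq and transcripts from Gencode 44 on GRCh38, which may not be the annotation used for counting. Values in every library are given for the actins, SRF, every gene called and the highest and lowest gene of each role group, and up to 3 called genes are named from each further list; MRTFA, MRTFB, GSN, VIM, TPM1 and PDLIM7 were added after their values were seen. The genes and lists were chosen with earlier results of these data known.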

Additional observations from a re-analysis of the deposited data

How the results depend on the processing

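The direction of the 16 calls held in every fit tried, and the number of calls did not. With the block, 14 (DESeq2, upper-quartile scaling, library size only) or 15 (RLE scaling, both other filters) of the 16 genes were called lower; DESeq2 without the block called 11. Without the pairing by experiment, edgeR with no replicate block called 3 members lower and, over all genes, 55 lower and 13 higher; DESeq2 without the block called 894 lower and 578 higher. No threshold on fold gave 26 members lower and 1 higher (2600 genes lower and 2391 higher in all), and a threshold of 1 gave 6 members lower (646 genes lower and 550 higher in all). Leaving out each library in turn without the block called 0 to 3 members lower and 0 higher, and 0 to 61 genes lower and 0 to 187 higher in all; with shPML replicate 1 left out 3 members were called, TAGLN, TAGLN2 and TMSB4X, and with any other library left out 0, when 8 to 17 members had an unadjusted p under 0.05. Without the block, 1 of the actin regulators, 1 of the Arp2/3, capping and turnover genes and 0 of the focal adhesion, microtubule and muscle lists were called. PML had a log2 fold change of -0.69 (adjusted p = 0.32) without the block, and of -1.06 to -0.40 with 1 library left out (-0.92 without shCtrl replicate 1). The median of the tropomyosins was 0.20, and 0.22 and 0.13 in experiments 1 and 2 alone. No scaling moved the median of all genes by more than 0.03 on the log2 scale, and no called gene changed sign. A blocked fit of 3 libraries leaves 0 residual degrees of freedom and was not made. The protein comparison of the actins was not run. ZYX, CNN2 and ACTA2, whose differences lie nearest the fold threshold, lost the call in 8, 4 and 3 of the 8 alternative fits of all 4 libraries.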

Other observations

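Other filament systems were read from lists chosen with earlier results known. Of the 15 microtubule and intermediate filament genes tested, 5 were called lower and 2 higher with the block and 0 without it. With the block, 10.5% of all genes tested were called lower and 8.57% higher. TUBA1B, the major alpha-tubulin, was at 2303 and 1987 CPM in shCtrl and 1036 and 771 CPM in shPML (log2 fold change -1.26, standard error 0.09, adjusted p = 4.5e-18 with the block and 0.068 without it in edgeR). Its isotype TUBA1A was at 297 and 274 CPM in shCtrl and 574 and 450.1 CPM in shPML, so both shPML libraries lay above both controls (log2 fold change 0.84, standard error 0.10, adjusted p = 2.0e-10 with the block and 0.11 without it). TUBB4B, a beta-tubulin, had a log2 fold change of -0.64. VIM, vimentin, had one of 0.48 and was not called.

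Of 14 further genes known from muscle, 6 passed the filter on low counts. Of these, 3 were called lower with the block, beside 10.5% of all genes tested, and 0 without it. SMTN, smoothelin, was at 112 and 163 CPM in shCtrl and 59.0 and 100.4 CPM in shPML (log2 fold change -0.81, standard error 0.11, adjusted p = 7.6e-09 with the block and 0.29 without it). CSRP2, a LIM protein, and NEXN, nexilin, had log2 fold changes of -0.62 and -0.62. ACTA1, ACTC1, MYH11, DES, SYNPO2, LMOD1, MYOCD and PGM5 did not pass the filter.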
